A study of Mus musculus with 4 samples.

Results

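The genes of sarcoplasmic reticulum calcium cycling taken here are Ryr2, Fkbp1b, Trdn, Jph2, Casq1, Casq2, Atp2a2, Pln, Sln and Slc8a1, chosen by gene symbol, and all 10 were found among the 17485 genes of the deposited table. Messenger RNA abundance was compared between hearts of wild-type (WT) male mice and hearts of male mice with a knockout (KO) of Klf9, a zinc finger protein of the Krüppel-like family that binds DNA. Both groups were 8 weeks old, had food and drink described only as random, and held 2 libraries of total RNA each. The labels gave no strain, no allele design and no tissue restriction of the knockout, and did not say whether each library was made from its own animal. The spread behind every p-value is thus that between libraries and may be technical. The study asked what Klf9 does for the mitochondria of the heart.

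Each heartbeat draws on calcium stored in the sarcoplasmic reticulum, the internal membrane store of muscle cells. Calcium entering through the surface membrane opens the ryanodine receptor, which releases the stored calcium and triggers contraction. Relaxation follows when a calcium pump returns it to the store and the sodium-calcium exchanger of the surface membrane carries the rest out of the cell. Phospholamban and sarcolipin are small membrane proteins that restrain the pump, and calsequestrin binds calcium inside the store.

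Of the 10 genes, 2 were higher and 2 were lower in knockout hearts, 5 did not pass the test, and Sln was too low to be tested. Casq1, the skeletal muscle form of calsequestrin, rose from a mean of 4.17 to 13.2, and Fkbp1b, which binds the ryanodine receptor, rose from 0.960 to 1.94. Trdn, which anchors calsequestrin to the release channel, fell from 37.6 to 13.5, and Atp2a2, the calcium pump SERCA2, fell from 3328 to 1926. Values are expression values per library recovered from the deposited ratios, in a unit that is not given, so that the depth behind them is unknown and levels of different genes are not ranked against each other. Calls rest on limma over all genes with Benjamini-Hochberg adjusted p below 0.05, and fold changes are on the log2(value + 1) scale, which understates the change of low genes. Where a library is left out, the spread between replicates is taken from the 2 libraries of the other group alone. A call gained or lost in such a fit can therefore reflect the spread of that pair rather than the library left out. Over all 12135 tested genes, 27.7% were called higher and 17.0% lower, 44.7% in either direction, so 2 of 9 members in each direction (22.2%) are shares near the background. After RLE scaling 2 members were higher and 4 lower (21.6% of all tested genes in each direction), and without the filter on low values or with the deposited ratios alone 0 were lower by limma (3 at an unadjusted p below 0.05). Without the filter 3 were higher, Sln among them, where 18.4% of all genes were. Without knockout replicate 2, 1 was higher (Casq1) and 1 lower (Trdn), where 15.3% and 9.06% of all tested genes were. The median log2 fold change was -0.47 over the 9 tested members and 0.12 over all tested genes. The members' median moved to -0.18 without wild-type replicate 1, -0.24 without knockout replicate 2 and -0.68 without knockout replicate 1.

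**Figure D1:**
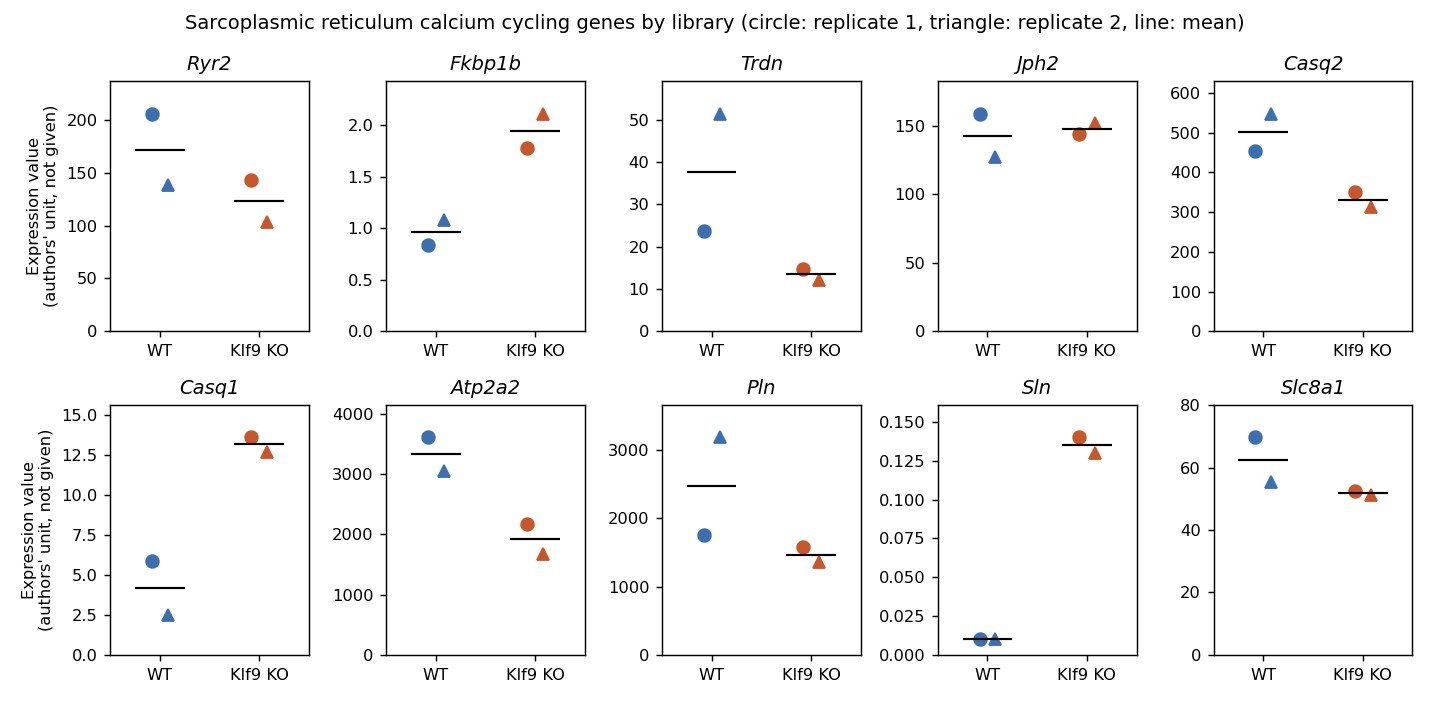
Expression value (vertical axis, from 0, authors' unit not given) of each of the 10 genes in the 2 wild-type (WT) and 2 Klf9 KO libraries, with a line at the group mean. Casq1 and Fkbp1b lie higher in both knockout libraries, Trdn and Atp2a2 lie lower, and Sln stays at or below 0.14 in every library.

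Klf9 itself stood at 74.9 and 58.8 in wild type and fell to 2.66 and 1.99 in the knockout (log2 fold change -4.35 ± 0.20, SE, n = 2 per group; limma adjusted p = 3.46e-06). The library of knockout replicate 2 did not match the male label: the Y-linked genes Kdm5d and Ddx3y stood at 0.01 there, the smallest step of the values, and at 3.42 to 4.01 and 7.82 to 17.1 in the other 3 libraries. The Y-linked genes Uty and Eif2s3y were low there but above that step, at 0.580 and 0.730. In the other 3 libraries they stood at 3.57 to 7.31 and 23.6 to 41.8. Esr1, which encodes estrogen receptor alpha, stood at 3326 and 2726 in wild type and at 0.09 and 0.03 in the knockout. The 12 cardiomyocyte markers summed to 30719 and 35989 in wild type and to 26142 and 24417 in the knockout. By limma 3 of them fell and 0 rose (0 also at an unadjusted p below 0.05), beside 17.0% and 27.7% of all tested genes. Mb fell from 8544 and 12678 to 4224 and 3828, while Myh6 went from 7101 and 4788 to 8725 and 7138 without passing. After RLE scaling 5 fell (21.6% of all tested genes), and with the deposited ratios alone 1 fell (8.17%). The list of ventricular cardiomyocyte markers went the other way: of 7 tested, 4 rose and 0 fell by limma (1 at an unadjusted p below 0.05). Its sums were 14661 and 17371 in wild type and 21555 and 21452 in the knockout, mostly from Myl2 and Myl3, neither of which passed. After RLE scaling 3 ventricular markers rose and 1 fell. Of other cell types, 6 of 7 tested macrophage markers fell, with sums of 200 to 343 in wild type and 58.4 to 58.5 in the knockout. Of 8 fibroblast markers 4 rose and 1 fell, with sums of 455 to 625 and 1099 to 1165. Col1a1 rose from 67.1 and 32.0 to 342 and 422, while Dcn was the one that fell, from 221 and 429 to 145 and 131. These counts stand beside the same 27.7% higher and 17.0% lower of all tested genes. Fewer cells of a type and less RNA per cell cannot be told apart in such samples, and the part of cell composition in the results below was not tested. RLE scaling of the libraries moved the median of all tested genes from 0.12 to -0.02 and the share of calls that were higher from 62.0% to 50.0%.

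The 250 bases before the start of the 2 genes that rose, Casq1 and Fkbp1b, are shown with those of Jph2, which did not pass. Klf9 binds GC-rich boxes, and these 3 were the only members searched that held the GC box. Members without the box are not shown, and no promoter of the genes that fell was searched. A link between the box and a change of expression can thus not be read from these sequences. Sequences are from RefSeq on GRCm38.p6, on the minus strand, read 5′ to 3′. Capitals mark the GC box GGGCGG and the CACCC box CACCC on either strand. The windows are chr1:172219896-172220145 for Casq1, chr12:4841574-4841823 for Fkbp1b and chr2:163397994-163398243 for Jph2, 1 of the 2 listed for that gene.
Casq1: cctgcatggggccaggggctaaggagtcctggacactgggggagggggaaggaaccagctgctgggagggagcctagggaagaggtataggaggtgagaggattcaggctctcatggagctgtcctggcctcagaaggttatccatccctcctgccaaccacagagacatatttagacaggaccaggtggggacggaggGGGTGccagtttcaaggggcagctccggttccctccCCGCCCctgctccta
Fkbp1b: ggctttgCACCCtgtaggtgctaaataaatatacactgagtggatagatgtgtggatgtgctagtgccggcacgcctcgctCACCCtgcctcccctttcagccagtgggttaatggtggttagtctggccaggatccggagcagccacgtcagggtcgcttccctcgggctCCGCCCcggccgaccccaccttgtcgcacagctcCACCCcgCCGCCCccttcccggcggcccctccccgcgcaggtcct
Jph2: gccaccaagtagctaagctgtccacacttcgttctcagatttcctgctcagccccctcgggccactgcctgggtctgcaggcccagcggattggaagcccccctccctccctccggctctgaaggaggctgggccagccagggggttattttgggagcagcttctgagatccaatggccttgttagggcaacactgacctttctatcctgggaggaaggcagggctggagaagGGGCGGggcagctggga
Casq1 held 1 GC box and 1 CACCC box, Fkbp1b held 2 and 3, and Jph2 held 1 GC box. Promoters were found for 7 of the 10 genes; Atp2a2, Sln and Trdn are not analysed here. The GC box was present in 3 of these 7 genes (Casq1, Jph2 and Fkbp1b), against 32.7% of all 32851 promoters of the same length. The CACCC box was present in 4 (Casq1, Fkbp1b, Ryr2 and Slc8a1), against 52.0%, and the E-box CANNTG in 6, against 66.2%, Fkbp1b being the exception. Pln alone held TATAAA, which 12.4% of all promoters hold, and the MEF2 motif (CTA, any 4 bases, TAG) was in 0 of the 7, against 3.20%. The bases before Pln were 32.8% G or C and those before Fkbp1b 64.8%, around a median of 52.4% for all promoters. A match of letters is a description and not a binding site.

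Ryr2 encodes the ryanodine receptor of the heart, the channel through which the store empties. It stood at 206 and 138 in wild type and at 143 and 103 in the knockout. The groups overlapped, since knockout replicate 1 lay above wild-type replicate 2, and the log2 fold change of -0.47 ± 0.26 (SE) did not pass (limma adjusted p = 0.178; unadjusted 95% interval -1.07 to 0.13). Its size depended on the libraries used: it was -0.76 without wild-type replicate 2, -0.18 without wild-type replicate 1 and -0.24 without knockout replicate 2. Ryr2 passed in the first of these fits and under no other alternative. The paralogs Ryr1 and Ryr3, which serve skeletal muscle and other tissues, stayed at or below 0.25 in every library and were not tested.

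Fkbp1b encodes FKBP12.6, a small protein bound to the cardiac ryanodine receptor. Its values were 0.840 and 1.08 in wild type and 1.78 and 2.11 in the knockout, so that both knockout libraries lay above both wild-type libraries. The log2 fold change was 0.59 ± 0.16 (SE, n = 2 per group; limma adjusted p = 0.0170), and on the plain scale the 4 deposited pairwise log2 ratios ran from 0.72 to 1.33. It fell short of the threshold in a fit to the deposited ratios alone (limma adjusted p = 0.0509). Without knockout replicate 2, the library that did not match the male label, the log2 fold change was 0.51 and Fkbp1b was not called. Fkbp1a, which encodes the close relative FKBP12, stood at 101 and 119 in wild type and at 162 and 195 in the knockout (0.69 ± 0.21, adjusted p = 0.0279); with RLE scaling it was not called (0.54, adjusted p = 0.0588), nor without the filter, with the deposited ratios alone or without either knockout library.

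Trdn encodes triadin, which ties calsequestrin to the release channel on the inner face of the store. It stood at 23.7 and 51.4 in wild type and at 14.8 and 12.2 in the knockout. Both knockout libraries lay below both wild-type libraries, which were themselves 2.17-fold apart. The log2 fold change was -1.32 ± 0.32 (SE; limma adjusted p = 0.00938), and the 4 pairwise log2 ratios ran from -2.08 to -0.68. Its size rests on wild-type replicate 2: without that library it was -0.77, without wild-type replicate 1 it was -1.86, and without knockout replicate 2 it was -1.19. It did not pass in a fit without the filter on low values (adjusted p = 0.0551) or to the deposited ratios alone (adjusted p = 0.102).

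Jph2 encodes junctophilin 2, the bridge that holds the store close to the surface membrane. Its values were 159 and 127 in wild type and 144 and 152 in the knockout, inside the wild-type range. The log2 fold change of 0.05 ± 0.21 (SE) did not pass (limma adjusted p = 0.864; unadjusted 95% interval -0.43 to 0.53), and its sign changed with RLE scaling (-0.10) and with upper quartile scaling (-0.0042). Its paralog Jph1, the main junctophilin of skeletal muscle, went from 10.9 and 9.54 to 4.89 and 4.69 (-0.95 ± 0.17, adjusted p = 0.00206). Jph3 and Jph4, the neuronal forms, stayed at or below 0.27.

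Calsequestrin is encoded by Casq2 in the heart and by Casq1 mainly in skeletal muscle. Casq1 stood at 5.88 and 2.47 in wild type and at 13.6 and 12.7 in the knockout, a ratio of the means of 3.15. The knockout libraries lay close together and above both wild-type libraries, which were 2.38-fold apart. Its log2 fold change of 1.53 ± 0.29 (SE; limma adjusted p = 0.00276) was the largest in size among the 9 tested members, except after RLE scaling, when it was 1.40 and that of Trdn -1.46. It was 2.03 without wild-type replicate 1, 1.04 without wild-type replicate 2, and 1.58 without knockout replicate 2. In the fit to the deposited ratios alone, which uses no levels, it was 1.79 and did not pass (adjusted p = 0.0716).

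Casq2 went the other way without passing, with 455 and 548 in wild type and 350 and 312 in the knockout. Both knockout libraries were below both wild-type libraries, and the log2 fold change was -0.59 ± 0.22 (SE; limma adjusted p = 0.0568). It passed after RLE scaling (-0.75, limma adjusted p = 0.0204) and after upper quartile scaling (adjusted p = 0.0301). The log2 fold change was -0.73 without wild-type replicate 1, -0.46 without wild-type replicate 2, -0.68 without knockout replicate 1 and -0.51 without knockout replicate 2. Casq2 passed in the fits without a wild-type library and not in those without a knockout library. For every 1000 units of Casq2 wild type held 12.9 and 4.50 units of Casq1 and the knockout 38.9 and 40.7. That balance was 5.22-fold higher in the knockout, and the scaling of a library cancels in it, while a difference between libraries by transcript length does not. Without wild-type replicate 1 its log2 difference was 3.14 and without wild-type replicate 2 it was 1.62, against 2.38 with all 4 libraries. The exact two-sided permutation test gave p = 0.333, the smallest that 2 libraries against 2 allow, and 0.533 after Benjamini-Hochberg adjustment over the 8 balances computed. Among tested genes outside the 10, the patterns most like that of Casq1 over the 4 libraries were those of Nav2, Ttc28 and Hspg2, at Euclidean distances of 0.124, 0.203 and 0.203 on the centred log2(value + 1) scale. Nav2 stood at 14.5 and 7.49 in wild type and at 31.2 and 29.2 in the knockout.

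Markers of fast skeletal muscle, the tissue in which Casq1 is the main form, were low in all libraries. Of 14 such markers in the table, 10 stayed below 1 in every library, and the whole list summed to 8.60 and 8.55 in wild type and to 12.4 and 11.6 in the knockout. The defining myosins Myh1, Myh2 and Myh4 stood between 0.01 and 0.04. Ryr1 was at 0.01 in both knockout libraries, and Atp2a1, the skeletal muscle pump, was at 0.230 to 0.310 throughout. Of the 2 tested markers, Tnni2 rose (0.650 and 1.40 against 2.51 and 2.21), though not without the filter or with the deposited ratios alone, and Mybpc2 did not pass (adjusted p = 0.0565).

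**Figure D2:**
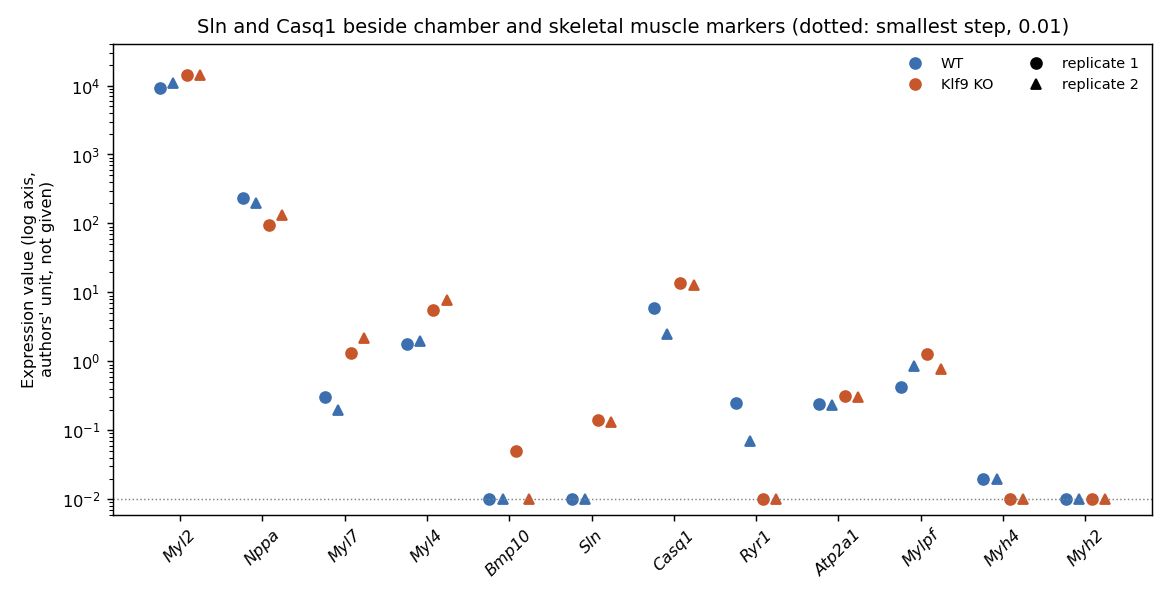
Expression values on a log axis of Sln and Casq1 beside the ventricular marker Myl2, the atrial genes Nppa, Myl7, Myl4 and Bmp10, and skeletal muscle genes, in each WT and Klf9 KO library. Casq1 is higher in both knockout libraries, Myh2 stays at the smallest step of 0.01 in all 4, and Sln and Bmp10 are at that step in wild type.

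Atp2a2 encodes SERCA2, the pump that refills the store. Its values were 3608 and 3048 in wild type and 2172 and 1679 in the knockout, so that the knockout mean was 57.9% of the wild-type mean and the groups did not overlap. The log2 fold change was -0.80 ± 0.26 (SE; limma adjusted p = 0.0336), with pairwise log2 ratios from -1.10 to -0.49. The call was lost without the filter (limma adjusted p = 0.0611) and with the deposited ratios alone (adjusted p = 0.0819). The log2 fold change was -0.98 without knockout replicate 1 and -0.61 without knockout replicate 2, and the call was lost in each. In both of these fits the SE was 0.55, taken from the wild-type pair, and it was 0.19 when a wild-type library was left out. The paralog Atp2a3 stood at 5.32 and 4.53 against 7.62 and 5.78 and did not pass (adjusted p = 0.139).

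Pln encodes phospholamban, the main brake on SERCA2 in the ventricle. It stood at 1752 and 3183 in wild type and at 1576 and 1361 in the knockout. Both knockout libraries were lower, but wild-type replicate 1 lay much closer to them than to wild-type replicate 2. The log2 fold change of -0.69 ± 0.31 (SE) did not pass (limma adjusted p = 0.104; unadjusted 95% interval -1.40 to 0.02). It passed after RLE scaling (-0.84, adjusted p = 0.0493) and without wild-type replicate 1 (-1.12, adjusted p = 0.000170), and was -0.26 without wild-type replicate 2. For every 1000 units of Atp2a2 there were 485 and 1044 units of Pln in wild type and 726 and 811 in the knockout, values that lie between those of the wild-type libraries (exact two-sided permutation p = 1, n = 2 per group). The balances of Slc8a1 and Ryr2 to Atp2a2 were 1.45-fold and 1.25-fold higher in the knockout without overlap (exact permutation p = 0.333 each, 0.533 after Benjamini-Hochberg adjustment). Transcripts of Slc8a1 (18464 bases) and Ryr2 (16814 bases) are longer than that of Atp2a2 (4486 bases). A difference between libraries by transcript length does not cancel in these balances, and its part was not tested.

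Sln encodes sarcolipin, a pump inhibitor that in the mouse heart belongs to the atria. It was listed at 0.01 in both wild-type libraries, the smallest step of the values, and at 0.140 and 0.130 in the knockout. All 4 values lay below the minimum of 1 required for testing, and no fold change is given against a step that can stand for 0. Other defining atrial genes were also low: Myl7 stood at 0.300 and 0.200 in wild type and at 1.31 and 2.18 in the knockout, Myl4 at 1.79 and 2 against 5.61 and 7.75, and Bmp10 at or below 0.05. Myl7 met the filter only through its 2 knockout libraries, so it could be called only higher. Myl2, the ventricular myosin light chain, stood at 9221 to 14274. Of 9 tested atrial markers 5 were higher and 3 lower, beside 27.7% and 17.0% of all tested genes. The lower ones included Nppa (232 and 195 against 93.8 and 134) and Stard10. Neither of these was called with the deposited ratios alone or without knockout replicate 1, and Stard10 was not called without knockout replicate 2. Sbk2, the other lower marker, met the filter only through its 2 wild-type libraries (1.57 and 1.11 against 0.600 and 0.490). The list summed to 285 and 237 in wild type and to 146 and 192 in the knockout. Most of each sum was Nppa, so the sums say little about the other atrial markers. The samples are labelled as hearts, and the labels do not say which chambers were taken.

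Slc8a1 encodes NCX1, the exchanger that moves calcium out of the cell. Its values of 69.7 and 55.5 in wild type and 52.6 and 51.2 in the knockout did not overlap, but differed little. The log2 fold change of -0.26 ± 0.19 (SE) did not pass (limma adjusted p = 0.313; unadjusted 95% interval -0.70 to 0.19), except without wild-type replicate 2 (-0.42, adjusted p = 0.0257), and was -0.09 without wild-type replicate 1. The paralog Slc8a2, known from brain, went from 0.530 and 0.390 to 1.16 and 1.63 (0.71 ± 0.16, adjusted p = 0.00728), while Slc8a3 stayed at or below 0.380 and was not tested. Slc8a2 met the filter on low values only through its 2 knockout libraries, so it could be called only higher. It was also called without that filter (limma adjusted p = 0.0245).

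**Figure D3:**
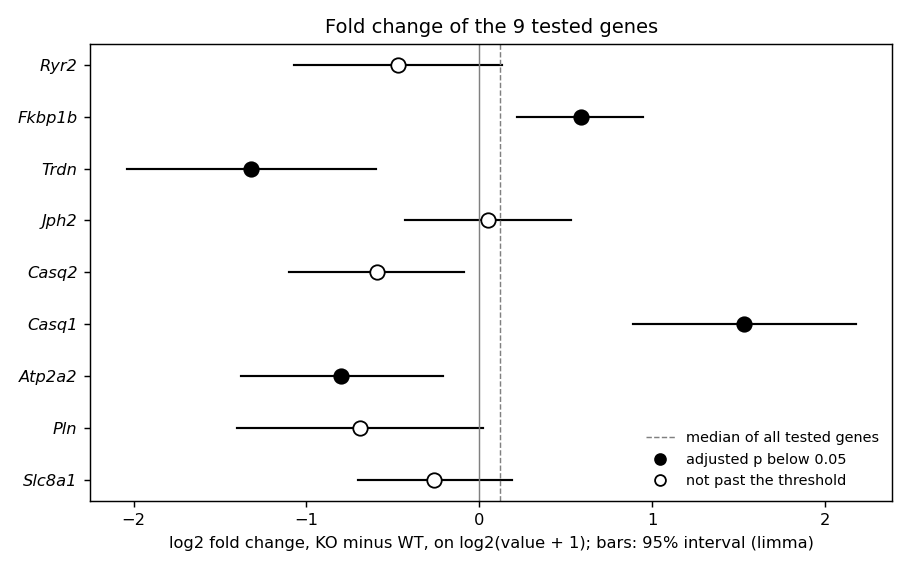
Log2 fold change (KO minus WT, on log2(value + 1)) of the 9 tested genes with unadjusted 95% intervals from limma; filled points passed an adjusted p of 0.05 and the dashed line is the median of all tested genes, 0.12. Casq1 and Fkbp1b lie to the right and Trdn and Atp2a2 to the left of both lines.

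Counted by order alone, 2 of the 9 tested members had both knockout libraries above both wild-type libraries and 5 had both below. Over all tested genes these shares were 45.2% and 30.2%. Ryr2 and Jph2 were the members that overlapped. The knockout libraries were closer to each other than the wild-type libraries in 8 of 9 members, Atp2a2 being the exception. Over all tested genes the median absolute log2 difference was 0.32 for the wild-type pair and 0.15 for the knockout pair, and over the members it was 0.36 and 0.21. Trdn and Pln were higher in wild-type replicate 2 than in replicate 1 by 1.12 and 0.86 on the log2 scale, and Casq1 and Ryr2 were lower by 1.25 and 0.58, so the value of each depends on which wild-type library is used.

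**Figure D4:**
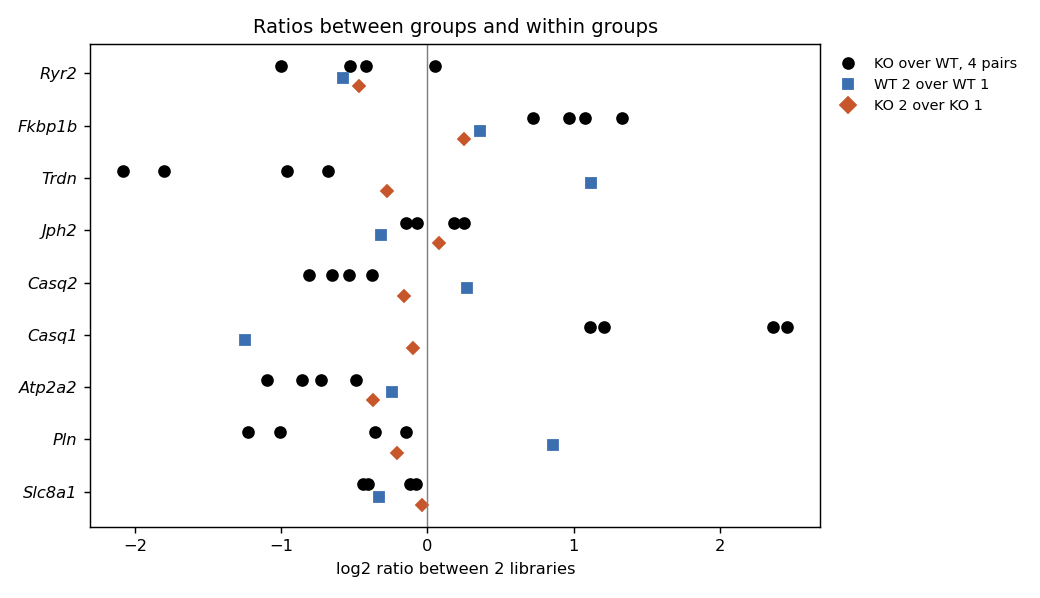
Log2 ratios between pairs of libraries for the 9 tested genes: black circles give the 4 knockout over wild-type (KO over WT) ratios, blue squares the WT replicate 2 over replicate 1 ratio and orange diamonds the KO replicate 2 over replicate 1 ratio. The difference between the WT libraries is largest for Casq1, Trdn and Pln, and the 4 ratios of Ryr2 and Jph2 lie on both sides of 0.

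The wild-type libraries also differed by transcript length. With the tested genes split into 4 equal groups by length, in the group with the shortest transcripts the median log2 ratio of wild-type replicate 2 over replicate 1 was 0.27, and in the group with the longest it was -0.22; the knockout replicates gave 0.12 and -0.06. Across the 11961 tested genes with a length, Spearman's rho between length and the wild-type ratio was -0.38. Ryr2 and Slc8a1, with transcripts of 16814 and 18464 bases, were lower in wild-type replicate 2, as was the median gene of their length group. Trdn (4514 bases, higher in replicate 2) and Casq1 (1847 bases, lower in replicate 2) went against the medians of their length groups, -0.02 and 0.27. The other 7 of 9 members went with the sign of their group's median, which was small in the 2 middle groups (0.09 and -0.02). The share of all tested genes that did so was not computed. The median log2 fold change between knockout and wild type was -0.05 in the group with the shortest transcripts and 0.28 in the group with the longest, with a Spearman's rho of 0.18 across these genes. No fit corrected the fold changes for length.

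DEGseq, as listed in the authors' deposited table, gave the members log2 ratios between the groups of -1.40 for Trdn, -0.81 for Atp2a2, -0.69 for Pln, 1.10 for Fkbp1b and 1.57 for Casq1. By that q-value, 8 of the 9 members listed with one in the authors' deposited table were below 0.05, all but Jph2 (q = 0.224), where 70.0% of all genes with a q-value were. Slc8a1 had a log2 ratio of -0.07 and q = 4.73e-06 in the authors' deposited table, against an adjusted p of 0.313 from limma, which takes the spread between libraries as the error.

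The wider machinery of calcium handling was read from 4 lists of other genes, 61 in all and 56 tested, of which 14 were higher and 12 lower. Without knockout replicate 2 the counts were 8 and 8, 14.3% each, where 15.3% and 9.06% of all tested genes were called. The 14 and 12 are 25% and 21.4%, beside 27.7% and 17.0% of all tested genes, and the median log2 fold change was 0.06 against 0.12. Of the 18 genes of the release channel complex, members included, 3 were higher (Casq1, Fkbp1b and Fkbp1a) and 6 lower. Those with the lowest p among the lower genes were Tmem38b, which encodes a potassium channel of the store membrane and went from 10.8 and 14.7 to 3.41 and 2.90, and Hrc, which encodes a calcium-binding protein inside the store and went from 536 and 497 to 180 and 129 (-1.75 ± 0.24, adjusted p = 0.000527). S100a1, Tmem38a, Asph and Trdn were the other lower genes. Asph, whose products include junctin, the partner of triadin, stood at 77.4 and 94.8 against 56.8 and 45.5.

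Among 22 tested genes of the uptake pump and its regulators, 4 were higher and 3 lower. Ppp1r1a and Ppp1r1b encode inhibitors of protein phosphatase 1, the enzyme that removes phosphate from phospholamban. Ppp1r1a rose from 1.14 and 0.260 to 9.02 and 12 (2.80 ± 0.26, adjusted p = 7.46e-05), and Ppp1r1b from 0.170 in both wild-type libraries to 2.72 and 5.19. Ppp1r1b met the filter only through its 2 knockout libraries and could be called only higher. It was also called without the filter (limma adjusted p = 0.00756). Ppp1ca, a catalytic subunit of that phosphatase, and Camk2g were the other higher genes. Hspb6, a small heat shock protein, fell from 1747 and 1470 to 444 and 414 (-1.90 ± 0.23, adjusted p = 0.000306). Ppp1r3a, a targeting subunit of the phosphatase in striated muscle, fell from 18.6 and 38.0 to 6.13 and 4.07, and Atp2a2 was the third lower gene.

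Of 13 tested genes of dyad and T-tubule structure, where the store meets the surface membrane, 4 were higher and 4 lower. Sntb1, a syntrophin of the dystrophin complex, rose from 0.590 and 0.640 to 18.6 and 14.2, and Synpo2l, an actin-associated protein of striated muscle, from 47.1 and 34.8 to 171 and 226. Sntb1 met the filter only through its 2 knockout libraries and could be called only higher. It was also called without the filter (limma adjusted p = 0.00182). Bin1 and Cav3, which shape the T-tubule membrane, were the other higher genes. Tcap, the Z-disc protein telethonin, fell from 364 and 635 to 127 and 112, and Cmya5 from 139 and 85.0 to 41.8 and 27.5; Jph1 and Mtm1 were the other lower genes. Of 13 tested genes of calcium exit and store refill, 5 were higher and 1 lower. Atp2b4, a calcium pump of the surface membrane, went from 7.02 and 4.33 to 12 in both knockout libraries. Slc8a2, Orai1, Itpr1 and Itpr2 were also higher, and Saraf, which limits store-operated calcium entry, fell from 132 and 148 to 79.5 and 80.0. Without knockout replicate 2 the counts higher and lower were 1 and 4 for the release channel complex, 2 and 2 for the uptake pump, 3 and 3 for the dyad and 3 and 0 for calcium exit, beside the same 15.3% and 9.06%. When either knockout library was left out, Saraf, Asph, Tmem38a, Ppp1ca, Camk2g, Cav3, Orai1 and Itpr2 were not called. With the deposited ratios alone Asph, Camk2g, Mtm1, Cmya5, Atp2b4, Orai1, Itpr1 and Itpr2 were not called, and with RLE scaling Camk2g and Itpr2 were not. Mtm1 was also lost without the filter, without wild-type replicate 2 and without knockout replicate 2, and Itpr1 and Itpr2 were lost without the filter. With the deposited ratios, where 15.1% of all genes were higher and 8.17% lower, the release channel complex had 0 higher (limma; 3 at an unadjusted p below 0.05) and calcium exit 1.

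**Figure D5:**
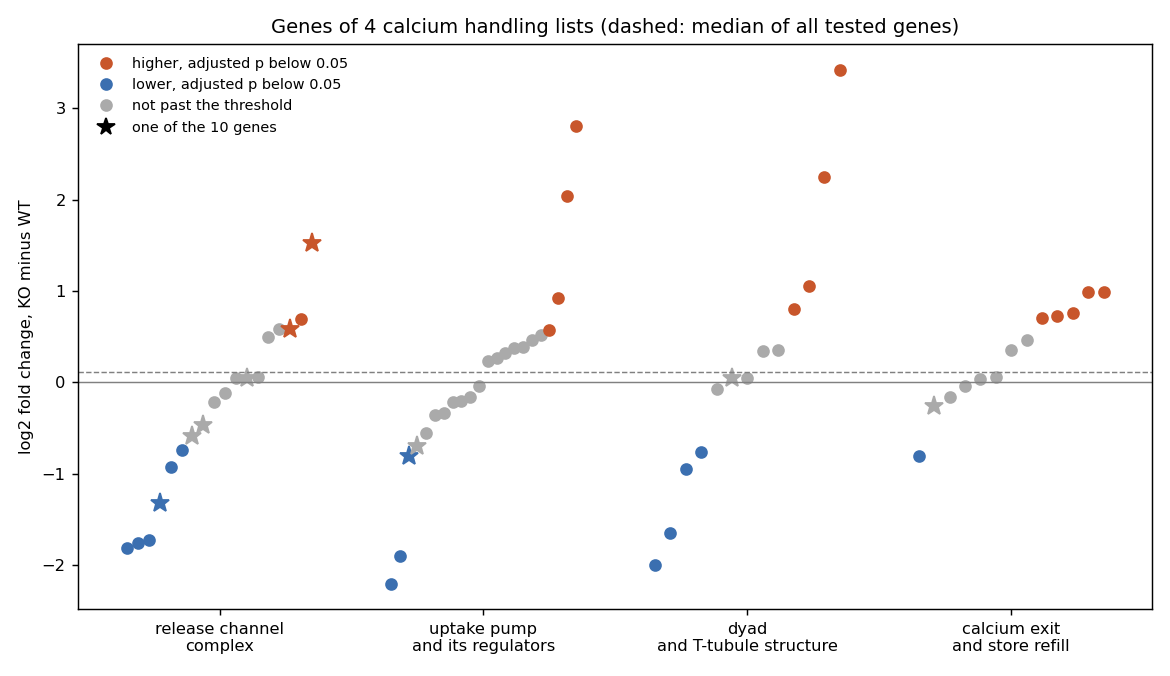
Log2 fold change (vertical axis, KO minus WT) of each tested gene in 4 lists of calcium handling genes, ordered by value within a list; stars are members of the 10, and the dashed line is the median of all tested genes. Every list holds genes called in both directions, and Sntb1 (3.42) and Ppp1r3a (-2.20) mark the ends of the range.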

How the data were processed

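Total RNA of hearts was sequenced in 2 wild-type and 2 Klf9 knockout libraries, grouped by sample title. The authors deposited 1 table of comparisons: per the file headers, log2 ratios of each knockout over each wild-type library with p-values and false discovery rates under a Poisson model, and a group log2 ratio with DEGseq p-values and q-values. Aligner, quantification, unit, build and depth are not given in the sources used here. Values per library were recovered as the smallest whole numbers, in assumed steps of 0.01, that give the deposited log2 ratios; all 17485 genes resolved, and missing ratios were read as values at 1 step. A factor common to all 4 values of a gene is lost, which lowers its level but not its ratios.

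Group was tested with limma 3.58.1 in R 4.3.3 (trend and robust) on log2(value + 1) of genes with at least 1 in at least 2 libraries (12135 genes; 9 of 10 members), with Benjamini-Hochberg adjustment over these genes. The fit and the recovery were tested on simulated data. Balances used exact permutation. Transcript lengths are the longest coding transcript in GENCODE M21. Tables and figures used Python 3.11.15, pandas 2.3.3 and matplotlib 3.10.9. The members, lists and tests were chosen with earlier results of these data known. Genes named were the 10 members, their paralogs, Klf9, Esr1 and a Y-linked check, the lowest p in each direction of each pathway list (up to 2) and the highest markers of cell type lists. Further genes in counts of 5 or fewer, Ddx3y, Uty, Eif2s3y and the other markers with values were named after their values were seen.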

Additional observations from a re-analysis of the deposited data

How the results depend on the processing

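Alternatives were scaling by RLE or by the upper quartile, testing all genes, a pseudocount of 0.1, limma without the robust setting, the deposited ratios alone, a replicate block and leaving out each library. Counts over all genes were 1320 lower with the deposited ratios alone and, with 1 library left out, 1859 to 4327 higher and 1100 to 3261 lower. Members called higher numbered 1 with the deposited ratios alone, where 15.1% of all genes were. That member was Sln, at 0.01 in both wild-type libraries and at 0.140 and 0.130 in the knockout, while Casq1 and Fkbp1b were not called. With a library left out, the log2 fold change ran from 1.04 to 2.03 for Casq1 and from 0.50 to 0.68 for Fkbp1b. Members called lower numbered 4 after RLE scaling (21.6% of all tested genes). By limma 0 were lower without the filter, where 10.3% of all genes were, and 0 with the deposited ratios alone, where 8.17% were. In each of these 2 fits 3 members were lower at an unadjusted p below 0.05. Other genes of the 4 lists called higher numbered 8 with the deposited ratios alone and 8 to 24 with a library left out. Jph2 had the other sign after RLE scaling (-0.10), after upper quartile scaling (-0.0042) and without wild-type replicate 2, and ran from -0.11 to 0.21 with a library left out. With a library left out, the log2 balance to Atp2a2 ran from -0.45 to 0.66 for Pln, from -0.06 to 0.46 for Casq2 and from -1.26 to 0.10 for Trdn, each crossing 0, from 0.15 to 0.49 for Ryr2 and from 0.37 to 0.70 for Slc8a1. Casq1, Fkbp1b, Trdn and Atp2a2 kept their direction under all 11 alternatives, as did Pln, Ryr2, Casq2 and Slc8a1, which were not called. Of 34 other genes called (26 of the lists, Mb, Nppa, Stard10, Tnni2, Myl4, Myl7, Klf9 and Esr1), 12 calls were lost with the deposited ratios alone, 12 without either knockout replicate in turn, 5 without the filter, 3 after RLE scaling and 1 without wild-type replicate 2, and none changed direction. Fits with a library left out take their error from the 2 libraries of the other group alone. Beyond that, the cause of these changes was not tested.

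Whether libraries of the same replicate number were handled together is not known here. The correlation of same-numbered deviations was -0.04, which cannot decide this. The ratio of replicate 2 over replicate 1 fell with transcript length in both groups (Spearman's rho -0.38 in wild type and -0.27 in the knockout). With the replicate block 4 members were lower, Pln (adjusted p = 0.0183) and Casq2 (adjusted p = 0.0322) among them, 2 were higher, and over all genes 3514 were higher and 2275 lower. Depth is unknown, and Sln and the lowest paralogs lie at values where a step of 0.01 matters.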
